A study of Mus musculus with 2 samples.

Results

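DNA repair genes of the mouse were examined in a map of H2AZ, a variant of histone H2A, made from progenitors of the embryonic brain. The members were 47 genes named by symbol, all found among 21774 protein-coding genes, and they were divided by primary role into mismatch repair (5 genes), excision repair (13), the Fanconi pathway (9) and double-strand break repair (20). The map came from chromatin immunoprecipitation with sequencing (ChIP-seq), in which crosslinked chromatin is pulled down with an antibody and the recovered DNA is sequenced. The series held 1 H2AZ library and 1 input library of chromatin without the pull-down, both from brain at embryonic day 13 of the strain C57BL/6 and labelled neural progenitor cells, with no genetic change or treatment named. The labels do not say how many embryos were pooled or how the cells were isolated.

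The deposited values were 1 list of peaks, regions that the authors' peak caller marked as enriched, each with a position and a score. The score is the authors' own value, ran from 3.72 to 38.8 over the list, and was used only to rank and describe peaks within it. With 1 library per group no value has a replicate, no difference could be tested, and read depth is unknown, so counts and medians are set beside those of all protein-coding genes as a description. The list is incomplete, since 21592 peaks are listed (66.1% of the peak numbers, which run to 32646), and a gene without a listed peak may have had a peak under one of the other numbers. The labelled cell type cannot be checked from peaks of a histone variant, which are no measure of expression. A peak lay at an end of 6 of 8 neural progenitor marker genes and of 1 of 4 marker genes each for neurons, microglia and endothelium, against 55.4% of all protein-coding genes.

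H2AZ takes the place of ordinary H2A in some nucleosomes, above all in those next to the start of a gene. DNA repair is divided among pathways by the kind of damage. Mismatch repair corrects copying errors behind the replication fork, excision repair removes damaged bases or short damaged strands, the Fanconi pathway unhooks crosslinks between the strands, and broken ends are rejoined directly or copied from the sister chromatid. Progenitors of the embryonic brain divide quickly, and inherited defects in several of these genes are known for small brain size or neurodegeneration.

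The promoters below show what starts with and without a peak looked like. For each pathway the member with the highest-scoring peak at its 5′ end was taken, as far as the RefSeq promoter table (GRCm38.p6) held it, followed by the first members in alphabetical order without a peak at either end, Fance and Fancm. Each line gives the 250 bases before the annotated start, 5′ to 3′ in the direction of transcription. Capitals mark short words searched on both strands, each named for the factor or element it is known for. They were the CCAAT box, the Sp1 word GGGCGG, the E2F words TTTGGCGC and also TTTCCCGC, the palindromic NRF1 word, the ETS word CCGGAAGT, the YY1 word AAGATGGC, the cell cycle element word TTTGAA, the cyclic AMP element word TGACGTCA and the promoter box word TATAAA.
Msh3 (chr13:92355004-92355253, minus strand): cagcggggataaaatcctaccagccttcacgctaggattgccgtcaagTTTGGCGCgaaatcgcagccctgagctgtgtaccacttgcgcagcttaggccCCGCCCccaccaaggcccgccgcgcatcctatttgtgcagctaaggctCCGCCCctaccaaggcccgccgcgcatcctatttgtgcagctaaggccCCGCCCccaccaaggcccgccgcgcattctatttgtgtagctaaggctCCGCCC
Ercc4 (chr16:13109486-13109735, plus strand): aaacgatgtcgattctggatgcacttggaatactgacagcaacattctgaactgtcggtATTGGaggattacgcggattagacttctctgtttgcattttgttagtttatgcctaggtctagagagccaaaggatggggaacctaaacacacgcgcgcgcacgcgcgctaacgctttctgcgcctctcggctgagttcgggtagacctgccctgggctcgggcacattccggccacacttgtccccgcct
Fanca (chr8:123318577-123318826, minus strand): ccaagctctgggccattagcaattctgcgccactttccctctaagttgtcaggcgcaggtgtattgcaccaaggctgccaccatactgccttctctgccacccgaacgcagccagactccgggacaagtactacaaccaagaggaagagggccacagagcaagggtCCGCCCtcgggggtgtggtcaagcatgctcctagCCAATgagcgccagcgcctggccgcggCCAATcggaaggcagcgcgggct
Brca2 (chr5:150522371-150522620, plus strand): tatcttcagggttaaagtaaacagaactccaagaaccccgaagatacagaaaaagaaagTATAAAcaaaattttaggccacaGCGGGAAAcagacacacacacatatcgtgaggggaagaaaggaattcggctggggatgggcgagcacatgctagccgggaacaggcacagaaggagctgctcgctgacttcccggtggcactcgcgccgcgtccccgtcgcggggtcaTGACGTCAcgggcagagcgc
Fance (chr17:28313280-28313529, plus strand): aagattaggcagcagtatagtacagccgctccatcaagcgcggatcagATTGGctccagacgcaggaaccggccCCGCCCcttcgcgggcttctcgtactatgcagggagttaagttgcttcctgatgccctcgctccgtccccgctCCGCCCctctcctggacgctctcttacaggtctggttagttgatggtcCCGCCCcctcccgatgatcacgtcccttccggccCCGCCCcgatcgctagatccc
Fancm (chr12:65075353-65075602, plus strand): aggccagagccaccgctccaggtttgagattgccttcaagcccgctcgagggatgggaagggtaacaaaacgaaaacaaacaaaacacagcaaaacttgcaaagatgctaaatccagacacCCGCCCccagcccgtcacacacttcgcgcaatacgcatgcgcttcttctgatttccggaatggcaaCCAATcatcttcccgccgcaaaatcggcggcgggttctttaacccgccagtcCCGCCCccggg

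The Msh3 promoter held GGGCGG on the opposite strand, read as CCGCCC, 4 times at an exact spacing of 48 bases, starting 150, 102, 54 and 6 bases before the start. An E2F word stands upstream of them, 202 bases before the start. The Fanca promoter held CCAAT 50 and 23 bases before the start. The Brca2 promoter held the cyclic AMP element word 20 bases before the start. The printed promoters of Fance and Fancm have no peak. Fance had 21 CG dinucleotides and 4 matches to GGGCGG, and Fancm had 19 CG and 2 such matches, against 20 CG in Msh3, 19 in Ercc4, 18 in Brca2 and 14 in Fanca. A match is a description of the letters and not evidence of binding.

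Most repair genes had an H2AZ peak at an end. A gene was counted if a peak overlapped the 1 kb on either side of its outermost start or end by at least 1 bp. This was so for 40 of the 47 members (85.1%), against 55.4% of all protein-coding genes. The median score of the highest end peak was 19.5 in these 40 genes (quartiles 16.3 and 21.8), and 17.1 over all 12060 protein-coding genes with one (quartiles 12.9 and 21.2). In all 47 peaks lay at or in the members, 43 at ends and 4 in interiors, and 6 members had no peak at all. With only the peaks scoring at or above the median of the list (11.9), 38 members had an end peak, against 44.4% of all genes, and Ercc2 and Fancc dropped out. The count was 40 with windows of 500 bp (54.0% of all genes), 41 with 2 kb (57.3%) and 41 with 5 kb (60.8%). It was 38 where the midpoint of the peak had to lie in the window (51.1%) and 39 where the peak had to overlap the gene itself (54.3%). Peaks at both ends were found in 3 members, Fancf, Fancg and Rad51d (6.38%, against 5.42%).

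**Figure D1:**
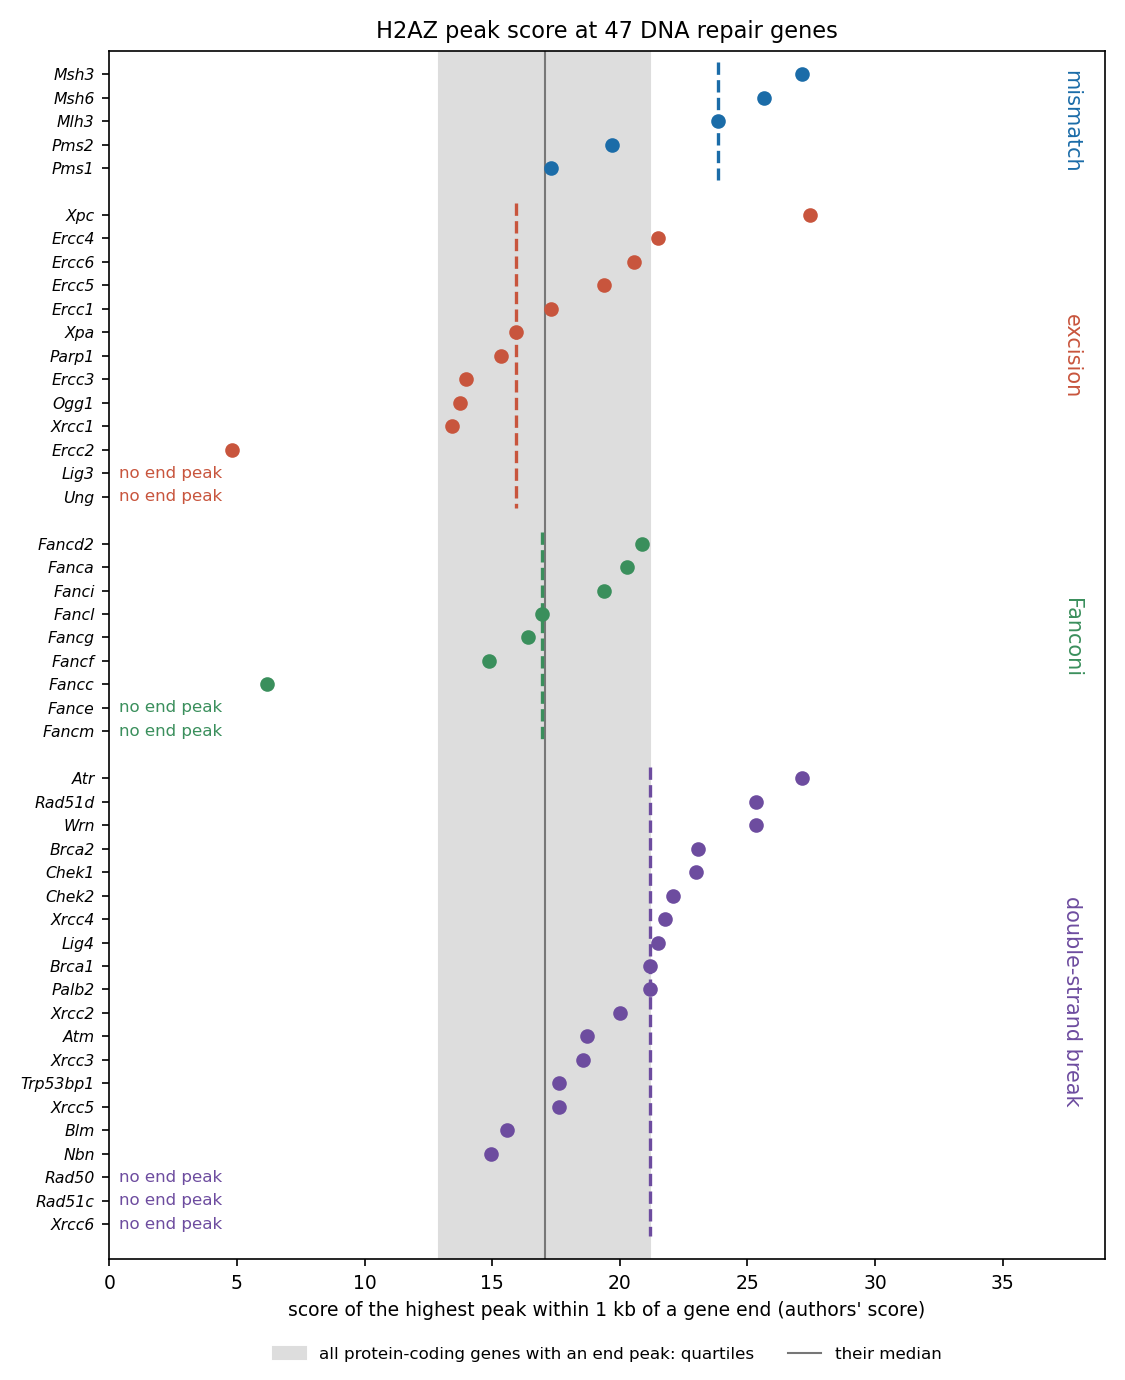
Each point is the score of the highest H2AZ peak within 1 kb of an end of a repair gene, with genes in rows by pathway, dashed lines mark the median of each pathway, and the grey band and line give the quartiles (12.9 and 21.2) and the median (17.1) of all protein-coding genes with an end peak. The 5 mismatch repair genes lie between 17.3 and 27.1, all above that median, while 7 genes have no end peak.

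By pathway the medians ran from 23.9 in mismatch repair through 21.2 in double-strand break repair and 17.0 in the Fanconi pathway to 15.9 in excision repair. The scores of the pathways overlapped, each pathway has few genes, and the order was not tested. End peaks were present at 5 of 5 mismatch, 17 of 20 double-strand break, 7 of 9 Fanconi and 11 of 13 excision repair genes, against 55.4% of all genes.

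All mismatch repair genes had an end peak. The proteins work in pairs, with Msh6 and Msh3 as alternative partners of a shared subunit in mismatch recognition, and Mlh3, Pms1 and Pms2 as alternative partners of a shared MutL subunit. Msh3, which serves the recognition of small loops, had the highest score of the group, 27.1, at rank 566 of the whole list. Its peak ran from 92353430 to 92356199 on chromosome 13. Msh6, which serves the recognition of single mismatches, had a score of 25.7, and Mlh3 had 23.9. Pms2 (19.7) and Pms1 (17.3) were the lowest. Pms2, which supplies the nicking activity of the complex, shared its peak with Aimp2, whose start lies 162 bp away on the other strand, and Pms1 shared its peak with Ormdl1, at 67 bp.

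In nucleotide excision repair, which cuts out a stretch around a bulky lesion, 8 of 8 genes had an end peak, against 55.4% of all genes, with a median score of 18.3. Xpc, which detects the distortion, had the highest score of all members, 27.4, in a peak on chromosome 6 from 91514795 to 91516817 that also covered the start of Lsm3. Ercc4, the nuclease subunit that cuts on the 5′ side of the lesion, had 21.5, and its partner Ercc1 had 17.3 and a second peak of 17.1 that lay 763 bp outside the gene. Ercc6, which acts where RNA polymerase has stalled, had 20.6, Ercc5, the nuclease on the 3′ side, 19.4, and the scaffold gene Xpa 15.9. The helicase genes of the transcription factor TFIIH were the lowest, with Ercc3 at 13.98 and Ercc2 at 4.80. The Ercc2 peak was the lowest end peak of any member, at rank 21392, although it was 1955 bp wide and covered the annotated start.

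In base excision and single-strand break repair 3 of 5 genes had an end peak (60.0%, near the 55.4% of all genes), all with scores below 17.1. Parp1, which senses strand breaks, had 15.3, the 8-oxoguanine glycosylase gene Ogg1 13.7, and the scaffold gene Xrcc1 13.4. The uracil glycosylase gene Ung and the ligase gene Lig3 had no peak at an end or inside. Ung stood just outside the 1 kb limit. A peak of score 29.2, higher than that of any member, ended 1.66 kb from Ung and lay in Alkbh2, a gene for direct reversal of alkylation damage that overlaps Ung on the annotation, and it covered the annotated start of Alkbh2 and not that of Ung. With windows of 2 kb Ung was counted, and excision repair had 12 of 13 genes, against 57.3% of all genes. Lig3 had its nearest peak 26.5 kb away, with a score of 7.76.

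In the Fanconi pathway 7 of 9 genes had an end peak, none with a score over 20.9. Fancd2 and Fanci encode the pair that is ubiquitinated at a crosslink, and they had similar scores, 20.9 and 19.4. Genes of the core complex that adds ubiquitin were spread more widely, with Fanca at 20.3, the ubiquitin ligase gene Fancl at 17.0, Fancg at 16.4, Fancf at 14.9 and Fancc at 6.19. The Fancd2 peak also covered the start of Emc3. Fancg had a second end peak of 9.84 on its 3′ side, 825 bp outside the gene, which covered the start of Vcp. The single Fancf peak reached within 1 kb of both ends of this short gene and covered the start of Gas2 as well. Fance and Fancm, which encodes the translocase that anchors the core complex, had no peak at an end or inside.

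In double-strand break repair 15 of 17 end peaks scored at or above the median of 17.1 over all genes with an end peak, against 5 of 5 in mismatch repair, 5 of 11 in excision repair and 3 of 7 in the Fanconi pathway. In the recombination subgroup 9 of 11 genes had an end peak, with a median of 21.2. Rad51d and Wrn, a RecQ helicase gene, each had 25.4, Brca2, a mediator of strand exchange, had 23.1, and Brca1 and Palb2, which act with it, had 21.2 each. Xrcc2 (19.99) and Xrcc3 (18.5), which also serve strand exchange, were lower, and the helicase gene Blm (15.6) and Nbn (15.0), a subunit of the complex that first binds broken ends, were the lowest. Rad51d also had a peak of 17.2 at its other end, which covered the start of Rffl. Rad50, the partner of Nbn, and Rad51c had no peak at an end or inside.

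In end joining, which ligates broken ends directly, 4 of 5 genes had an end peak. Xrcc4 (21.8) and Lig4 (21.5) encode the ligase and its scaffold partner and differed little in score. Xrcc5, which encodes a subunit of the Ku ring around broken ends, had 17.6, and Trp53bp1, which favours end joining over resection, had 17.6. Xrcc6, which encodes the other Ku subunit, had no end peak, but it held an interior peak of 24.1, above that of Xrcc5. The signalling genes Chek1 (23.0), Chek2 (22.1) and Atm (18.7) all had a peak over the annotated start. Atr, the kinase gene that responds to single-stranded DNA, counted with 27.1, but its peak lay 376 bp outside the 3′ end and covered the start of the next gene, Xrn1.

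Start sites gave a different reading from gene ends, by which Xrcc6 was gained and Atr was lost. Annotated starts were known for 39 members, and 33 of them (84.6%) had a start inside a peak, against 54.1% of 17492 protein-coding genes. Ercc3, Fancd2, Nbn, Rad50, Rad51d, Wrn, Xpc and Xrcc2 were not in the promoter table. A peak lay within 1 kb of the 5′ end in 32 of 39 members (82.1%, against 53.1% of all genes), and of the 3′ end in 3 (7.69%, against 7.29%). The 3 with a 3′ peak were Fancf, Fancg and Atr. In Atr no peak covered the start, and the nearest one upstream ended 11.3 kb away.

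The peaks over starts were similar in size and placement. They reached a median of 1185 bp upstream of the start (675 to 1921 bp) and 1094 bp downstream (772 to 2391 bp), and 30 of 33 had their midpoint within 300 bp of the start. The exceptions were Brca1, with a midpoint 424 bp upstream and 2994 bp of width, and Fancc and Lig4, with midpoints 465 and 682 bp downstream. The Lig4 peak, 3419 bp wide, covered both of its annotated starts. Over the 40 highest end peaks the median width was 2298.5 bp, against 2207 bp for all genes with an end peak, and the median distance from midpoint to gene end was 138 against 223 bp.

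**Figure D2:**
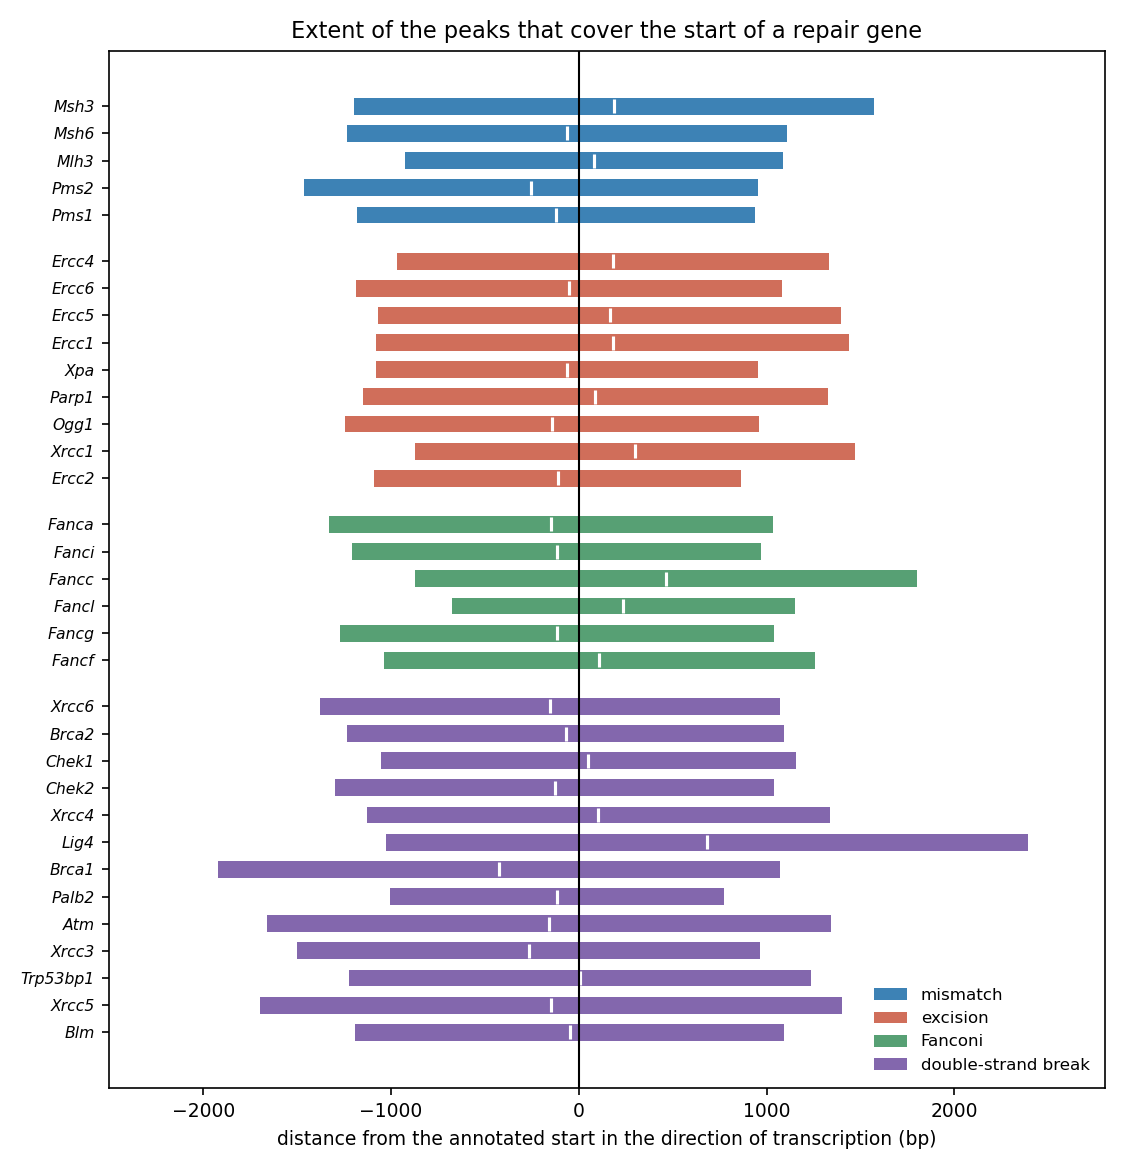
Bars show the 33 peaks that cover the annotated start of a repair gene, by distance from the start in bp in the direction of transcription (negative is upstream), with a white tick at each midpoint and rows ordered by score within each pathway. All bars span the start, reaching 675 to 1921 bp upstream and 772 to 2391 bp downstream, with the Lig4 peak extending furthest downstream.

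In 3 genes the outermost end was not where the score was highest. Fancc had a peak of only 6.19 at its outer 5′ end, and a peak of 17.6, from 63429943 to 63432618 on chromosome 13, covered the annotated start 65.5 kb inside. Trp53bp1 had a peak at its outer 5′ end (17.6, and at 4382 bp the widest of the members) and interior peaks of 17.9, at the start of Map1a, and 18.2, at its own annotated start 24.9 kb inside. The interior peak of Xrcc6, from 82014990 to 82017441 on chromosome 15, lay over the annotated start 28.5 kb inside, which lies 149 bp from the divergent start of Desi1. Interior peaks were otherwise absent, and 3 of 47 members held one (6.38%, against 13.8% of all genes).

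**Figure D3:**
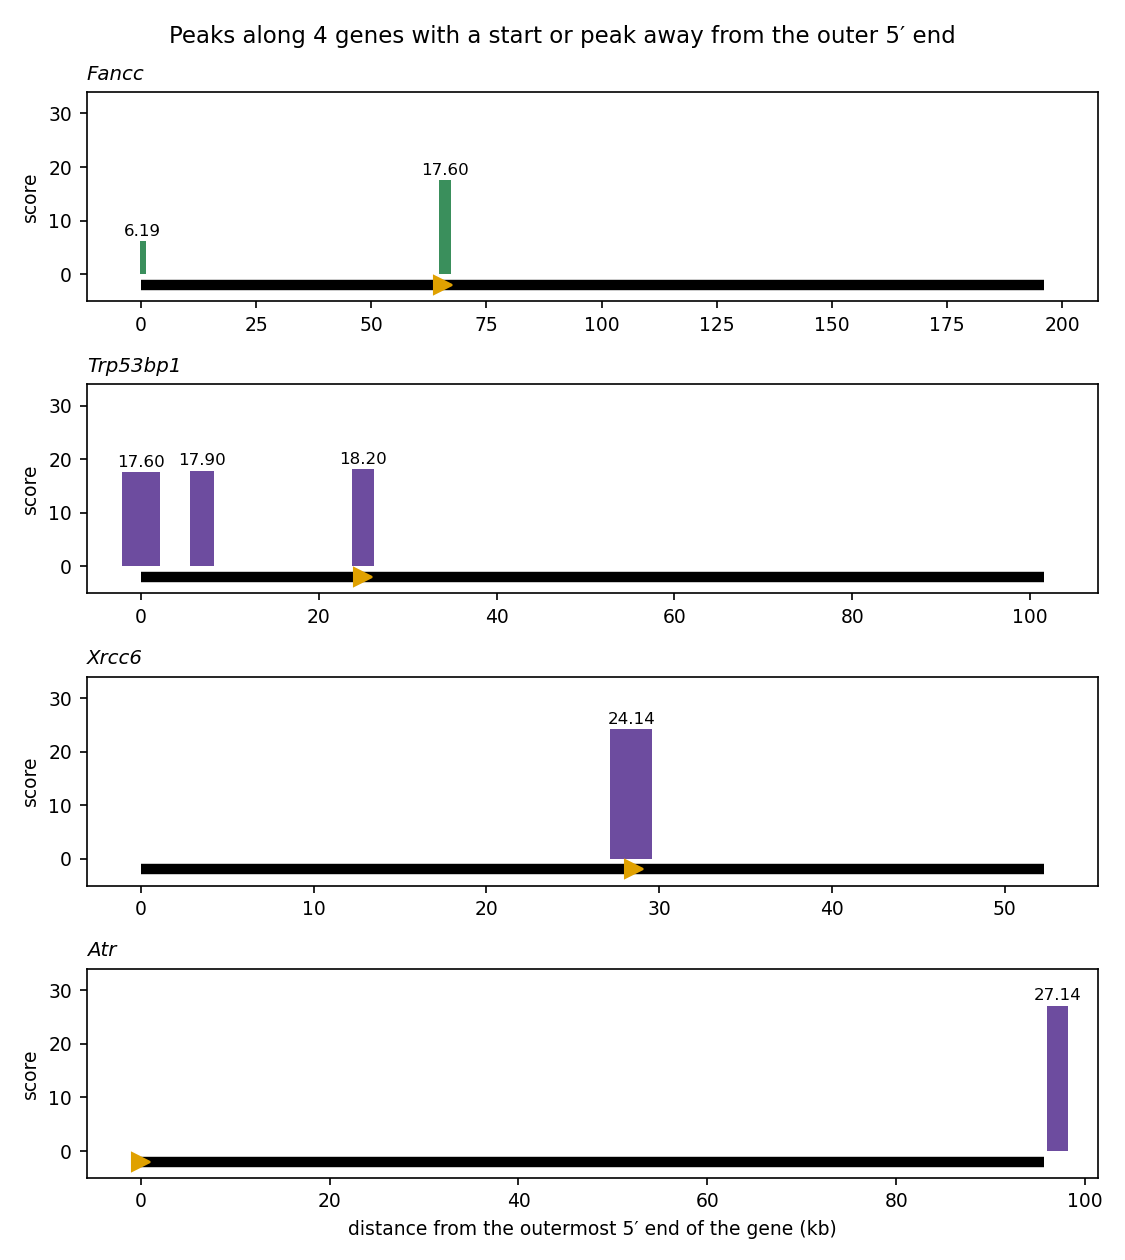
Bars give peak score and extent along Fancc, Trp53bp1, Xrcc6 and Atr by distance in kb from the outermost 5′ end, the black line is the gene, and the arrowhead is the annotated start. In the first 3 genes a peak of 17.6, 18.2 or 24.1 stands over the arrowhead, whereas in Atr the only peak (27.1) lies beyond the 3′ end.

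Many repair genes lie close to another gene, and their peaks were often shared. Of the 40 highest end peaks 20 (50.0%) were also within 1 kb of an end of another protein-coding gene, against 27.1% of all genes with an end peak. These were 4 of 5 in mismatch, 10 of 17 in double-strand break, 3 of 7 in Fanconi and 3 of 11 in excision repair. The shares fell in the same order as the median scores of the pathways, and a link was not tested. No other gene end lay within 2 kb of 15 of 47 members (31.9%), while this was so for 67.8% of all genes. A divergent start, on the other strand and facing away within 1 kb, was annotated for 12 of 39 members (30.8%), against 8.48% of all genes in the table. The closest pairs were Lig4 with Abhd13 (37 bp), Xrcc4 with Tmem167 (59 bp) and Pms1 with Ormdl1 (67 bp), followed by Palb2 with Dctn5 (95 bp), Xrcc6 with Desi1 (149 bp), Brca1 with Nbr1 (152 bp) and Pms2 with Aimp2 (162 bp). Xrcc3 with Zfyve21 (291 bp), Atm with Npat (376 bp) and Xrcc1 with Pinlyp (694 bp) lay further apart, and in each of these pairs 1 peak covered both starts. Rad51c with Tex14 (111 bp) and Atr with 1700065D16Rik (80 bp) were divergent pairs without a peak.

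Members without a close neighbour had peaks as well. Among members with no other gene end within 2 kb, 14 of 15 (93.3%) had an end peak, against 47.5% of such genes in all, and among the others 26 of 32 (81.2%), against 72.0%. Of the members without a divergent partner, 23 of 27 had a start inside a peak (85.2%, against 51.8% of such genes), and of those with one, 10 of 12 (83.3%, against 79.4%). A peak that covers both starts of a divergent pair cannot be assigned to either gene alone.

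Promoters of repair genes were rich in CG dinucleotides. Among all genes the share with a peak at the outermost annotated start (52.8% in all, against 33 of 39 members) was 8.98% with 0 to 4 CG before it, 53.5% with 5 to 9 and 81.6% with 10 to 14. In the 250 bases before the outermost annotated start the median was 17 CG in the 39 members and 10 in all genes, and 35 members (89.7%) had 10 or more, against 50.4% of all genes. By pathway the median was 18 CG in mismatch and in double-strand break repair, 15 in the Fanconi pathway and 13 in excision repair. Whether this bears on the pathway scores was not tested. Among genes with 10 or more, 82.2% of all genes and 29 of 35 members (82.9%) had the start inside a peak, so at this CG content the members were near the background. Their score was higher than the background, with a median of 19.7 in these members with a peak and 17.9 in all such genes. The 6 members without a peak at the start, Atr, Fance, Fancm, Lig3, Rad51c and Ung, all had 10 or more CG, with a median of 17 as in the members with a peak. Below 10 CG, where 22.9% of all genes had a peak at the start, there were only 4 members, Ercc1, Fancl, Xrcc1 and Xrcc5, and all 4 had one. Fancl had just 2 CG and a score of 17.0.

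**Figure D4:**
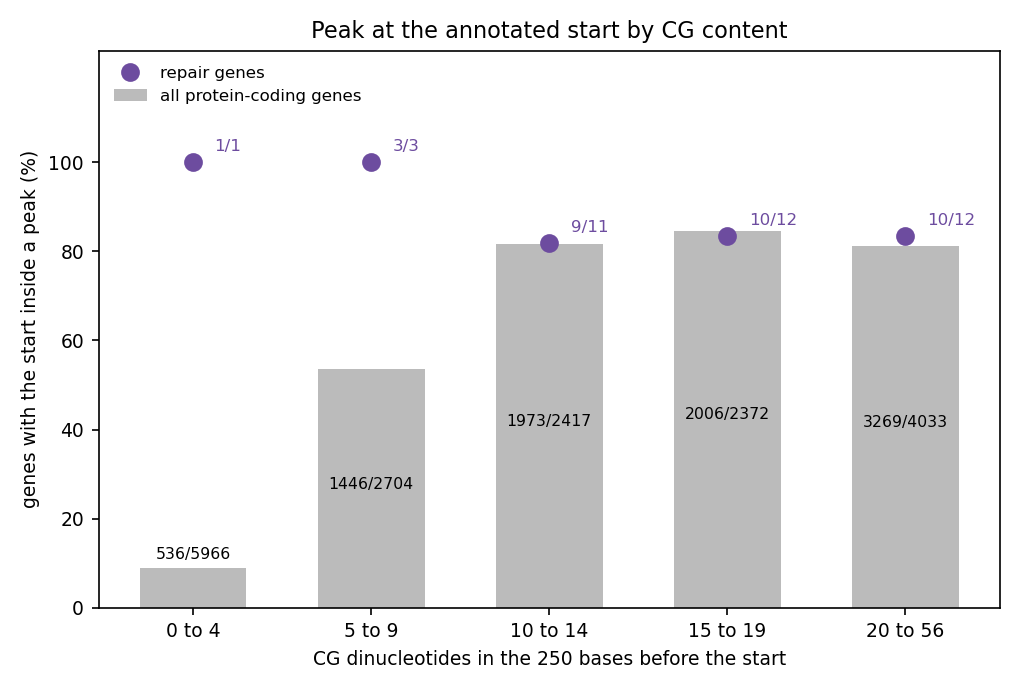
Grey bars give the percent of protein-coding genes whose annotated start lies inside a peak, by the number of CG dinucleotides in the 250 bases before it, and points give the same for repair genes, with counts beside both. From 10 CG upwards the repair genes (9 of 11, 10 of 12 and 10 of 12) lie near the bars (81.6, 84.6 and 81.1%), and the 4 repair genes with fewer than 10 CG all have a peak.

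Of the words searched in these 250 bases, CCAAT was in 21 of 39 members (53.8%, against 36.5% of all 17492 promoters), and in 19 of the 33 members with a peak at the start, against 36.8% of all promoters with one. GGGCGG was in 22 members (56.4%, against 42.7% of all promoters), but in 17 of the 33 with a peak, which is below the 63.1% of all promoters with one. An E2F word was in 5 members (12.8%, against 1.74% of all promoters and 2.62% of those with a peak), namely Brca2, Chek2, Fancg, Msh3 and Xrcc6. E2F factors are known as regulators of S phase genes. The annotated start lay inside a peak in all 5 of these members. The same was so for 242 of the 305 promoters with an E2F word among all genes, and for 33 of all 39 members. The ETS word was in 3 members (7.69%, against 3.82% of all promoters and 6.02% of those with a peak), Lig4, Ogg1 and Palb2. The NRF1 word (in Lig4), the cell cycle element word (in Ercc5), and the cyclic AMP element and TATAAA words (both in Brca2) were in 1 member each (2.56%), against 1.06, 15.1, 1.98 and 12.4% of all promoters and 1.68, 9.51, 2.87 and 5.62% of those with a peak. The YY1 word was in 0, against 1.5% and 1.92%. The E2F word and GGGCGG can share letters. These are counts of letters with no test, and no match says only that the word is not in this window.

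The members without any peak differed in their surroundings. Fance and Rad51c lay in stretches without peaks that were far wider than the median distance of 39.1 kb between neighbouring peaks. The stretch around Fance ran for 2023 kb on chromosome 17 with 39 protein-coding genes wholly inside it, and that around Rad51c ran for 3181 kb on chromosome 11 with 38. Peak numbers follow the order along the chromosomes, so numbers missing from the list can be placed. Between the peaks that flank Fance 0 numbers were missing, and between those that flank Rad51c 2 were. By definition no gene wholly inside such a stretch has a listed peak overlapping it, and the cause of the stretches was not tested. Such stretches, of at least 1 Mb with at least 20 genes, numbered 39 and held 1955 protein-coding genes, of which 653 were olfactory receptor genes. Without them 40 of 45 members had an end peak, against 60.9% of other genes. All 12060 genes with an end peak remained, because the stretches were picked for lacking peaks. Neither share could therefore fall.

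The other members without a peak lay in shorter stretches. Around Fancm the stretch without peaks was 134.2 kb, with 1 missing number, and the nearest peak, of 20.6 at Prpf39, was 36.8 kb away. Around Rad50 it was 98.3 kb, with 1 missing number, and the nearest peak (12.5) was 12.7 kb away, beside Il13. For Lig3 it was 167.7 kb with 4 missing numbers, and for Ung 46.5 kb with 3, so a peak that was numbered but not listed is possible at each of these genes.

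Further genes of the same pathways were counted in the same way. Of 73 repair genes outside the members, 66 (90.4%) had an end peak, against 55.4% of all genes, with a median score of 18.04. Exo1, the exonuclease of mismatch repair, had the highest, 31.6, followed by the damage-recognition gene Ddb2 (30.1) and the Holliday junction resolvase gene Gen1 (29.5). End peaks were present at 5 of 5 genes of mismatch repair and its resynthesis, 11 of 13 of nucleotide excision, 16 of 16 of base excision, 9 of 9 of the Fanconi pathway and 25 of 30 of double-strand break repair. Their median scores were 22.07 in nucleotide excision, 19.39 in double-strand break repair, 19.14 in mismatch repair, 16.11 in base excision and 14.91 in the Fanconi pathway. Excision repair was given as 1 group in the order of the members above. Split in the same way, the members had medians of 18.3 in nucleotide excision and 13.7 in base excision. Mismatch repair was then highest among the members and base excision lowest. By the highest end peak this order was not repeated in the further genes, where nucleotide excision was highest and the Fanconi pathway lowest. Over peaks at annotated starts, known for fewer genes, the further genes had medians of 19.39 in double-strand break repair and 18.2 in nucleotide excision. They had 16.59 in mismatch repair, 14.91 in the Fanconi pathway and 14.32 in base excision. By that measure base excision was lowest in both sets, at 13.74 in the members. These differences were not tested. In base excision the share with an end peak also differed from the 3 of 5 among the members. Among those without were Gtf2h4, Mad2l2, Mdc1, Rad9a, Rbbp8 and Rif1, and Gtf2h4, Mad2l2 and Mdc1 lay in wide stretches without peaks like those above.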

How the data were processed

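One list of H2AZ peaks was used, with 1 line per peak giving chromosome, start, end, name and score. The score is the authors' deposited value, and no header names its meaning. Peak names carry the caller MACS, per the deposited file, with version and settings not given in the sources used here. The submitters' processing notes list CASAVA 1.4, Bowtie2 2, FastQC and mm9. Positions were read as GRCm38, since 51.6% of peaks overlapped the 1 kb around ends of protein-coding genes in RefSeq GRCm38.p6, against 8.26 to 8.32% after a shift of 1000000 bp, and nothing was converted. Of 21592 peaks, 46 numbered after the last Y peak stand out of chromosome order and were left out, leaving 21546; none lay at a member.

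Gene ends are the outermost RefSeq coordinates. Strand, starts and promoter letters came from the RefSeq promoter table. Interior peaks overlap the gene and neither end window. No test was made, and shares of chosen genes carry no interval. Members, groups and lists were chosen with earlier results of these data known. Named were all members, with most detail for the highest, lowest and absent peaks of each pathway, and the highest and absent among other repair genes, except a few genes that are not reported here. Overlap calls were checked on simulated peaks. Python 3.11.15, numpy 2.4.6, pandas 2.3.3, scipy 1.17.1 and matplotlib 3.10.9 were used. Alternatives were window sizes, score, midpoint, single 5′ ends, own-gene peaks, isolated genes and a wider Fanconi group; annotated starts, CG content and wide peak-free stretches were added after seeing the data.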

Additional observations from a re-analysis of the deposited data

How the results depend on the processing

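Of 120 recomputed counts and medians, 115 stayed close to their reported value. Close means within 1.5 times for a count and within the 95% binomial interval of the median for a score. For the 5 mismatch and 7 Fanconi genes with an end peak this interval was the full range. These limits are wide, and some values could not move. Peaks out of chromosome order lay at no member, and leaving out wide peak-free stretches removed only genes without an end peak. The number of members with an end peak ran from 32 to 41 over all alternatives that kept neighbouring genes, and their median score from 19.1 to 19.8. The 32 and 33 are of 39 genes, for 5′ ends and annotated starts. The other 5 values differed because fewer or other genes were counted. Among genes with no other gene end within 2 kb, 14 of 15 members had an end peak, made up of 6 of 6 excision, 2 of 2 Fanconi and 6 of 7 double-strand break repair genes, and no mismatch repair gene was left to count. With Brca1, Brca2, Palb2, Rad51c, Xrcc2 and Ercc4 moved to the Fanconi pathway, whose complementation names they also carry, 12 of 15 Fanconi, 10 of 12 excision and 13 of 15 double-strand break repair genes had an end peak. Requiring the peak midpoint in the window removed Ercc1 and Atr, and requiring overlap with the gene removed Atr. No paired analysis was possible because each group has 1 library and no result comes from a test. Depth is unknown and the list is partial, so an absent peak is not evidence that H2AZ was absent.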
